A study of Mus musculus with 6 samples.

Results

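The comparison set CD4 T cells without Ezh2 that were cultured toward the Th2 fate against the same kind of cells cultured without a polarizing cytokine. It rests on 2 of the 6 arrays of the study, chosen by their titles: the Ezh2 KO Th2 array and the Ezh2 KO unpolarized array, 1 array a group. All cells were naive CD4 T cells, sorted as CD44 low and CD62L high from spleens of C57BL/6 mice. They were stimulated with antibody to the T cell receptor beta chain at 10 µg/ml, antibody to CD28 at 1 µg/ml and IL-2 at 15 ng/ml. The cultures ran for 5 days, 2 with and 3 without the stimulating antibodies. Th2 cultures received IL-4 at 10 ng/ml and an antibody that blocks IFN-γ, and unpolarized cultures received blocking antibodies to both IL-4 and IFN-γ. The Th2 and unpolarized groups therefore differ in the added IL-4 and also in the blockade of IL-4 made by the cells themselves. Wild type Th2 and wild type unpolarized arrays, made with the same media, served for comparison. The Ezh2 KO Th1 and wild type Th1 arrays came from cultures with IL-12 at 1 ng/ml and blocked IL-4. The labels do not give the allele, the Cre driver or the deleted part of Ezh2, nor whether the arrays came from separate or pooled mice.

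IL-4 binds a receptor on T cells that activates the kinases JAK1 and JAK3, which phosphorylate the transcription factor STAT6. STAT6 raises transcription of Gata3, and GATA3 opens and activates the genes of the Th2 cytokines IL-4, IL-5 and IL-13, which drive allergic inflammation and defence against worms. The enzyme Ezh2 methylates histone H3 to form the repressive mark H3K27me3, as part of the Polycomb complex PRC2, and is known to silence cytokine and transcription factor genes of alternative fates in T helper cells.

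Values are linear array intensities, and differences are log2 of Th2 minus log2 of unpolarized, so that positive values mean higher in Th2 cells. Values under 11.33, the 20th percentile of all values, were raised to that floor. Of 18193 genes with a named probe set, 10749 were measured in the Ezh2 KO pair, meaning that at least 1 of its 2 values reached 64.43, the median of all values. With 1 array a group, no difference within the pair has an error or a test, and 2-fold marks a size, not a significance. The Ezh2 probe set read 4946 on the Ezh2 KO Th2 array and 4971 on the Ezh2 KO unpolarized array, against 7677 on the wild type Th2 array and 7002 on the wild type unpolarized array. The Ezh2 KO values were lower, but the signal was not lost, and a probe set outside the deleted part would check nothing. The CD4 T cell markers Cd4, Cd3e, Cd3d, Cd3g and Thy1 all had signal, and 0 of the 7 measured markers of this kind differed by 2-fold in the pair.

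Th2 cells without Ezh2 had 388 genes at 2-fold or more higher than unpolarized cells without Ezh2, which is 3.61% of the genes measured, and 167 genes at 2-fold or more lower, which is 1.55%. Most of these genes were dim. Of the higher genes, 311 had their higher value between the median and the 75th percentile of all values, and of the lower genes 156 did. Among the 6766 genes whose higher value passed the 75th percentile of 431.7, called bright here, 77 genes (1.14%) were 2-fold or more higher and 11 genes (0.163%) were 2-fold or more lower. In the wild type pair, 21 of 6768 bright genes (0.31%) were higher and 12 (0.177%) were lower, and over all genes measured there 207 (1.93%) were higher and 310 (2.89%) were lower. The Ezh2 KO Th1 array, set against the same Ezh2 KO unpolarized array, had 9 of 6715 bright genes (0.134%) higher and 1 (0.0149%) lower, and over all 10694 genes measured there 230 (2.15%) higher and 116 (1.08%) lower. The spread of the log2 difference over bright genes, which mixes response and array noise, was an SD of 0.31 in the Ezh2 KO pair and 0.23 in the wild type pair. Between pairs, the counts among dim genes differed in direction, with more higher than lower calls in Ezh2 KO and the opposite in wild type.

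**Figure D1:**
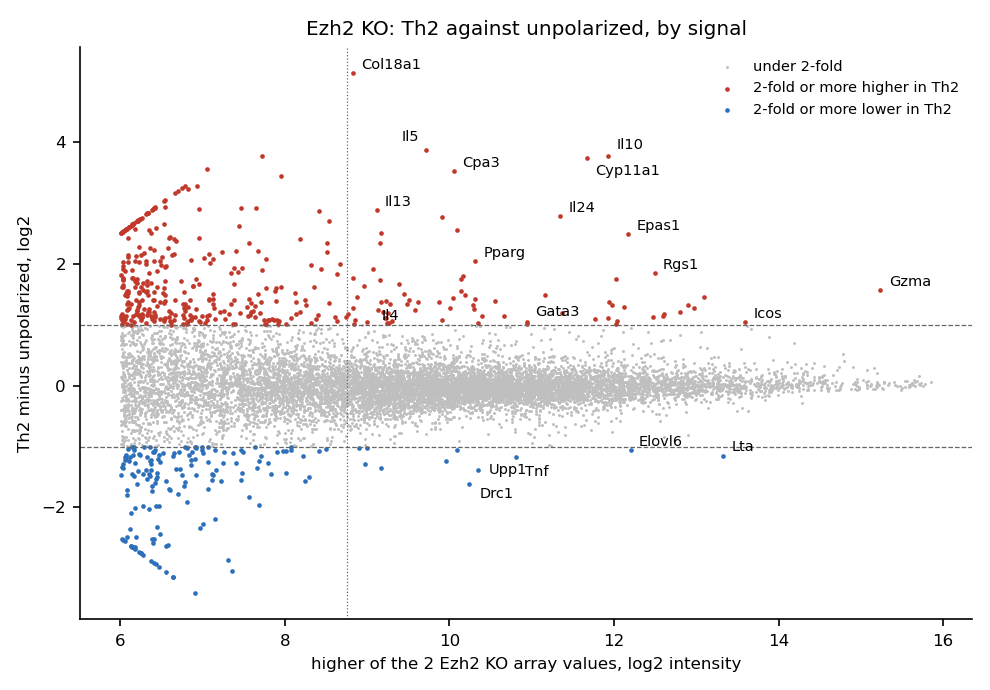
Each point is 1 of the 10749 genes measured in the Ezh2 KO pair; the horizontal axis is the higher of its 2 log2 intensities and the vertical axis its log2 difference, Th2 minus unpolarized, with dashed lines at 2-fold and a dotted line at the 75th percentile (431.7). The 77 bright genes above the upper dashed line are led by Col18a1, Il5, Il10 and Cyp11a1, while 11 bright genes lie below the lower one; the slanted rows of points at the left are genes whose other array was at the floor.

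**Figure D2:**
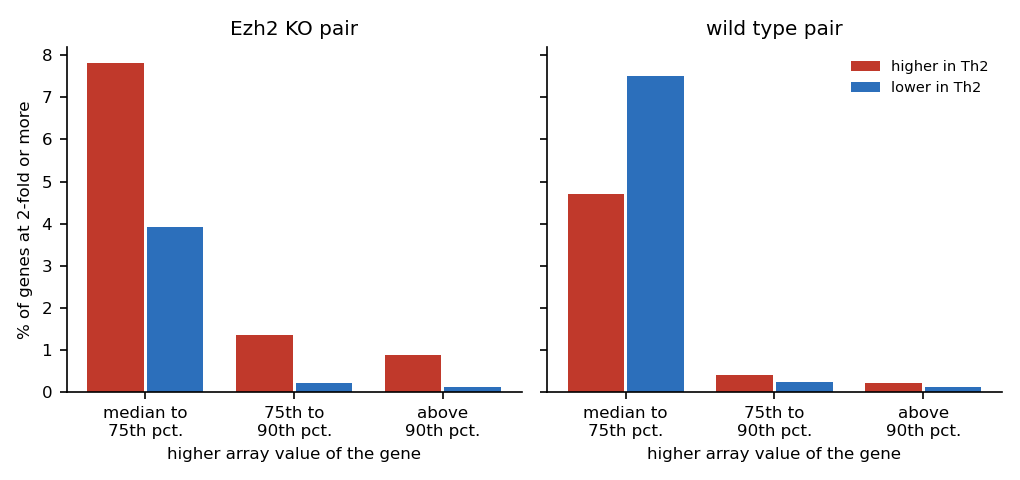
Bars give the percent of measured genes at 2-fold or more higher (red) or lower (blue) in Th2 than in unpolarized cells, by the signal of the brighter array, for the Ezh2 KO pair (left) and the wild type pair (right). Between the median and the 75th percentile the bars stand at 7.81% and 3.92% in Ezh2 KO and at 4.7% and 7.52% in wild type; above the 90th percentile they stand at 0.866% and 0.0999% in Ezh2 KO and at 0.204% and 0.102% in wild type.

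The effector cytokines had the highest median difference of the 38 gene lists in Th2 cells without Ezh2. Of 12 listed Th2 cytokines, 11 had a probe set and 7 were measured, and 6 of the 7 were 2-fold or more higher, against 3.61% of all genes measured. The median log2 difference of the 7 was 2.79, against -0.01 over all genes measured. Il5 and Il6 reached the limit on the Ezh2 KO Th2 array alone of the pair, so the filter fixed their direction in advance. The count and the median rest in part on this. Il5, which encodes the growth factor of eosinophils, read 842 in Th2 cells without Ezh2 and 57.4 in unpolarized cells without Ezh2, a log2 difference of 3.88. Its values on the other arrays were 27.8 in Ezh2 KO Th1, 31.2 in wild type Th2, 18.7 in wild type Th1 and the floor in wild type unpolarized cells. The Ezh2 KO Th2 array was thus the sole array with Il5 above the limit of 64.43.

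Il13, which acts on airway epithelium and mucus cells, read 555 in Ezh2 KO Th2 and 75.2 in Ezh2 KO unpolarized cells, a 7.38-fold difference, and lay at the floor on both wild type arrays of the comparison. Il4 itself read 601 in Ezh2 KO Th2 and 230 in Ezh2 KO unpolarized cells, a 2.62-fold difference. Its wild type values were 228 in Th2 and 24.1 in unpolarized cells, a log2 difference of 3.24 against 1.39 without Ezh2. The Il4 value of unpolarized cells without Ezh2 was close to that of wild type Th2 cells. The difference between the 2 responses could not be tested with 1 array a group.

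Il4, Il13 and Il5 lie next to each other on chromosome 11, with Rad50, a DNA repair gene, between Il13 and Il5 in the RefSeq gene table of GRCm38.p6. Rad50 read 1407 in Ezh2 KO Th2 and 1308 in Ezh2 KO unpolarized cells. Kif3a, a kinesin gene on the other side of Il4, read 786 in Ezh2 KO Th2 and 512.5 in Ezh2 KO unpolarized cells, and Irf1, beyond Il5, read 4925 and 3830 on the same arrays. None of these 3 neighbours reached 2-fold, with log2 differences of 0.10, 0.62 and 0.36. The 250 bases before the start of each of the 3 cytokine genes are shown because these genes differed together, with the STAT6 motif TTCNNNNGAA and the GATA motif AGATAA in capitals where they occur on either strand. The sequences are RefSeq's, GRCm38.p6.
Il5 promoter, chr11:53720544-53720793, plus strand: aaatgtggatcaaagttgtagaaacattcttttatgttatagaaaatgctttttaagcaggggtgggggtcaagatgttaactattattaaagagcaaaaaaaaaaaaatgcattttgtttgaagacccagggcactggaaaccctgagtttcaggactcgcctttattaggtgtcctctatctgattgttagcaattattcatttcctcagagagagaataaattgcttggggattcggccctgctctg
Il13 promoter, chr11:53634703-53634952, minus strand: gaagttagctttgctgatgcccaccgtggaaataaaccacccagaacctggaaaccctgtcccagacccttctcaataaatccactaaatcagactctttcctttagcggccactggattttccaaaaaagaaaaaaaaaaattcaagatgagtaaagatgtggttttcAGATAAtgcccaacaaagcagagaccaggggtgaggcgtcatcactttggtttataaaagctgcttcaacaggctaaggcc
Il4 promoter, chr11:53618666-53618915, minus strand: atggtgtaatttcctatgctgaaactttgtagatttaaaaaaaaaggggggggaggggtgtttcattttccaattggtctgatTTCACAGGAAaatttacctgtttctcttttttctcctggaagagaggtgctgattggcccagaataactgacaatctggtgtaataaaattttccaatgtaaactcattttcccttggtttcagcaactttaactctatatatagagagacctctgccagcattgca
The Il4 promoter held 1 STAT6 match, TTCACAGGAA, whose first base is at position -167 from the gene start, and the Il13 promoter held 1 GATA match at position -81. The Il5 window held neither string, and the matches did not overlap. Of 27025 promoters of this length, 5.88% held the STAT6 motif and 10.2% the GATA motif. Among genes measured in the Ezh2 KO pair the shares were 4.48% and 5.8% of 8769 promoters, and among the 2-fold higher genes with a promoter sequence they were 6.93% and 8.58% of 303. The 2-fold lower genes had 3.65% and 5.84% of 137, and the bright 2-fold higher genes 3.39% and 10.2% of 59. The STAT6 motif was thus in 2 of the 59 promoters of bright higher genes and in 21 of the 303 of all higher genes. With so few promoters, no direction is read from these shares.

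Il10, which encodes an anti-inflammatory cytokine made by several kinds of T helper cell, read 3891 in Ezh2 KO Th2 cells and 284 in Ezh2 KO unpolarized cells, a 13.7-fold difference. Ezh2 KO Th1 cells were near the unpolarized value at 361, and all 3 wild type arrays were under the limit, at 45.2 in Th2, 25.0 in unpolarized and 34.7 in Th1 cells. Il24, a cytokine of the IL-10 family whose gene lies in the same cluster on chromosome 1, read 2611 in Ezh2 KO Th2 and 378 in Ezh2 KO unpolarized cells. Wild type Il24 read 183 in Th2 and 82.2 in unpolarized cells, so that both genotypes had more in Th2, by log2 differences of 2.79 and 1.16. Mapkapk2, a kinase gene beside Il10, read 1174 in Ezh2 KO Th2 and 1039 in Ezh2 KO unpolarized cells, a log2 difference of 0.18. Il6 was dim, at 173.5 in Ezh2 KO Th2 and 28.3 in Ezh2 KO unpolarized cells and at the floor on the other 4 arrays.

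Csf2, which encodes GM-CSF, was the measured cytokine of the list without a 2-fold difference, at 1256 in Ezh2 KO Th2 and 1216 in Ezh2 KO unpolarized cells. Il3, Il9, Il25 and Il31 stayed under the limit on both arrays of the pair. In bulk RNA of this kind, more cells making a cytokine and more RNA per cell cannot be told apart.

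**Figure D3:**
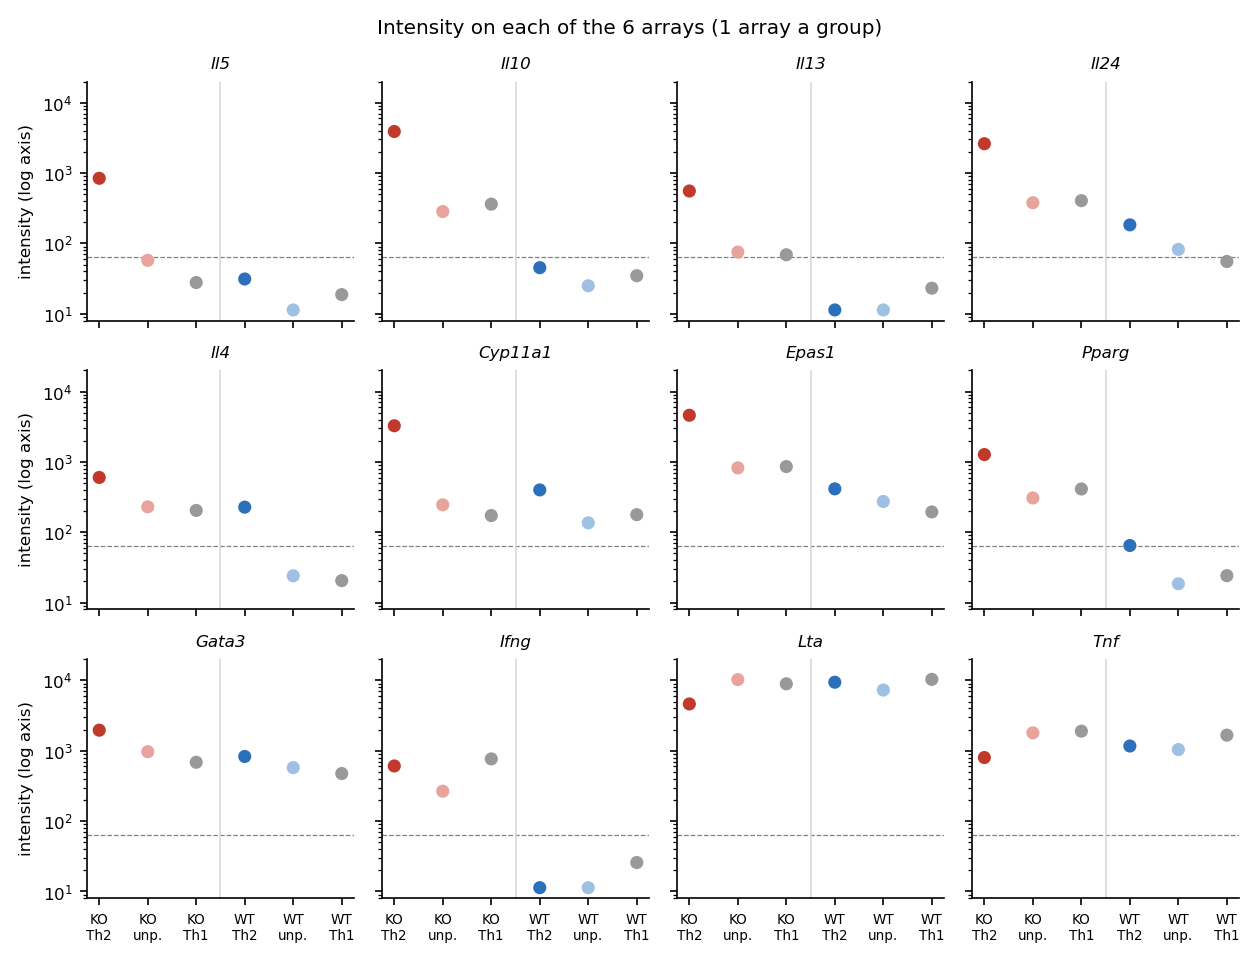
Each panel shows the intensity of 1 gene, on a log axis shared by all panels, on the Ezh2 KO (KO) Th2, unpolarized (unp.) and Th1 arrays and then on the wild type (WT) Th2, unpolarized and Th1 arrays, with 1 point an array and no error bars; the dashed line is the limit of 64.43. Il5, Il10, Il13, Il24, Cyp11a1, Epas1 and Pparg are highest on the Ezh2 KO Th2 array, and Lta and Tnf are lower there than on the Ezh2 KO unpolarized array.

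The genes that receive and carry the IL-4 signal lay near the shares over all genes. Of 19 genes for the receptor, its kinases, STAT6 and their feedback inhibitors, 18 had a probe set and 15 were measured. Of the 15, 0 reached 2-fold, against 3.61% higher and 1.55% lower over all genes measured. At such shares a count of 0 does not set a list of 15 apart. The median log2 difference was 0.04, against -0.01 over all genes measured. Il4ra, the specific receptor chain, read 2569 in Ezh2 KO Th2 and 2424 in Ezh2 KO unpolarized cells. Stat6 read 885 in Ezh2 KO Th2 and 1145 in Ezh2 KO unpolarized cells, the lowest difference of the list at -0.37. Socs3, a feedback inhibitor of cytokine receptors, gave the highest at 0.89, with 5478 in Ezh2 KO Th2 and 2958 in Ezh2 KO unpolarized cells. In wild type its values ran the other way, at 1746 in Th2 and 2859 in unpolarized cells, and this contrast of directions was not tested. The IL-2 and STAT5 response list had Prf1 and Lta at 2-fold, in opposite directions, among 19 measured genes, with a median of -0.05.

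Of 28 measured transcription factors and regulators known in Th2 differentiation, 6 were 2-fold or more higher and 0 lower in the Ezh2 KO pair. The shares over all genes measured were 3.61% and 1.55%. Of the 28, 21 were above 0, with a median log2 difference of 0.32. Epas1, which encodes the hypoxia-inducible factor HIF-2 alpha, led them at 4603 in Ezh2 KO Th2 and 823 in Ezh2 KO unpolarized cells. A second Epas1 probe set gave a log2 difference of 2.54, against 2.48 for the first. Wild type cells read 414 in Th2 and 274 in unpolarized cells, under 2-fold. Pparg, the nuclear receptor that controls lipid uptake and is known to support Th2 effector function, read 1272 in Ezh2 KO Th2 and 307 in Ezh2 KO unpolarized cells. Its wild type values were much lower, 64.9 in Th2 and 18.5 in unpolarized cells, with a log2 difference of 1.81 beside 2.05 without Ezh2.

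Gata3, the central Th2 factor, read 1962 in Ezh2 KO Th2 and 970.5 in Ezh2 KO unpolarized cells, a 2.02-fold difference. With arrays centred on their medians the log2 difference was 0.96, just under 2-fold. Wild type Gata3 read 830 in Th2 and 575 in unpolarized cells. Irf4, which is needed for effector differentiation, read 1968 and 957 in the Ezh2 KO Th2 and unpolarized cells, and 1115 and 782 in the wild type Th2 and unpolarized cells. Its fold of 2.05 also slipped under 2 with median centring, at a log2 difference of 0.99, and with the mean of its probe sets, at 0.65. Both factors therefore stood at the edge of the size used here.

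Prdm1, which encodes Blimp-1, a repressor that acts with Maf on Il10, read 1031 in Ezh2 KO Th2 and 427 in Ezh2 KO unpolarized cells, and 107.5 and 107.1 in wild type Th2 and unpolarized cells. Maf, an activator of Il4 and Il10, read 5302 in Ezh2 KO Th2, 3721 in Ezh2 KO unpolarized and 5309 in Ezh2 KO Th1 cells. The Ezh2 KO Th2 and Th1 values of Maf were alike, unlike those of Il10. In wild type Maf was near the limit, at 92.2 in Th2 and 31.2 in unpolarized cells. The 4 other Maf probe sets gave Ezh2 KO log2 differences of 0.23 to 0.46 and were under the limit in both wild type cultures. Ecm1, a secreted protein that promotes exit of Th2 cells from lymph nodes in mice, read 1052 in Ezh2 KO Th2 and 389 in Ezh2 KO unpolarized cells, and 902 and 463 in wild type Th2 and unpolarized cells. Nfil3, a basic leucine zipper factor, was under 2-fold without Ezh2 at 0.91 and above it in wild type at 1.06.

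Surface receptors and mediators of Th2 cells were higher in part. Of 29 listed, 27 had a probe set and 20 were measured, and 8 of these were 2-fold or more higher and 0 lower, against 3.61% and 1.55% of all genes, with a median log2 difference of 0.46. Wild type was similar, with 5 of 20 measured higher and 0 lower, against 1.93% and 2.89% of all genes there, and a median of 0.39. Cyp11a1, the enzyme that starts steroid hormone synthesis from cholesterol and is known from IL-4 treated T cells, read 3263 in Ezh2 KO Th2 and 246 in Ezh2 KO unpolarized cells, a 13.3-fold difference. Ezh2 KO Th1 cells read 173, and wild type cells 400 in Th2 and 136 in unpolarized cells, so the wild type fold went the same way at a log2 difference of 1.55. A second Cyp11a1 probe set gave 3.13 in Ezh2 KO. Penk, which encodes the opioid precursor proenkephalin, read 1096 in Ezh2 KO Th2 and 187 in Ezh2 KO unpolarized cells, and 421 and 57.3 in wild type Th2 and unpolarized cells. The Penk differences were of like size in both genotypes, at 2.55 and 2.88.

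Cysltr1, the receptor for cysteinyl leukotrienes, read 7158 in Ezh2 KO Th2 and 3105 in Ezh2 KO unpolarized cells, with a second probe set at a log2 difference of 1.24 beside 1.20. Il7r, the survival receptor for IL-7, read 6255 in Ezh2 KO Th2 and 2776 in Ezh2 KO unpolarized cells, and 3070 and 1264 in wild type Th2 and unpolarized cells. Icos, a costimulatory receptor, read 12330 in Ezh2 KO Th2 and 5982 in Ezh2 KO unpolarized cells, and its 3 probe sets gave log2 differences of 1.04 to 1.09. With median centring the Icos value was 0.99. Rnf128, a ubiquitin ligase tied to T cell unresponsiveness, read 1343 in Ezh2 KO Th2 and 609 in Ezh2 KO unpolarized cells. Ccr4 was under 2-fold at -0.30, and Ccr8, Il17rb, Havcr1, Ptgdr2, Ccr3 and Hpgds did not reach the limit on either array of the pair. Cd200r1, an inhibitory receptor, had a log2 difference of 0.77 without Ezh2 and 1.71 in wild type, and Asb2, a ubiquitin ligase subunit known from Th2 cells, had 0.47 and 2.08. Their unpolarized levels were already high without Ezh2, at 652 for Cd200r1 and 2089 for Asb2 in Ezh2 KO, against 20.8 and 50.02 in wild type.

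Cpa3, a carboxypeptidase stored in mast cell granules, read 1061 in Ezh2 KO Th2 and 92.7 in Ezh2 KO unpolarized cells, an 11.45-fold difference. It is also a marker of mast cells and basophils, and was 1 of 2 measured among 10 such markers. The other measured marker, Kit, the receptor for stem cell factor, was lower in Ezh2 KO Th2 cells at 135 than in Ezh2 KO unpolarized cells at 257. Fcer1a, Ms4a2, Mcpt4 and Hdc lay at the floor on both arrays, and Mcpt8 read 64.1 in Ezh2 KO Th2 and 12.4 in Ezh2 KO unpolarized cells. The summed intensity of the list was 1381 in Ezh2 KO Th2 and 444.5 in Ezh2 KO unpolarized cells, and 333 and 364 in wild type Th2 and unpolarized cells, with 7 of 10 markers under the limit on all 6 arrays. Of the B cell markers, Ms4a1, which encodes CD20, read 669 in Ezh2 KO Th2 and 210 in Ezh2 KO unpolarized cells, while Cd79a was under the limit on all 6 arrays. Of 5 measured B cell markers, 4 were above 0 (Ms4a1, Cd79b, Cd22 and Blnk), with a median log2 difference of 0.68. Their sum was 5546 in Ezh2 KO Th2 and 6023 in Ezh2 KO unpolarized cells, most of it Ighm, at 4348 and 5454 on these arrays. None (0) of the eosinophil and erythroid markers was measured in the pair. Of 6 measured myeloid and dendritic cell markers, 4 were above 0, with a median of 0.67, and 1, Mpeg1, was at 2-fold, or at a log2 difference of 0.95 with median centring. In the wild type pair 3 of 6 measured were 2-fold or more higher, against 1.93% of all genes there, with a median of 0.94. The wild type sums of this list were 3213 in Th2 and 2629 in unpolarized cells. The list summed to 6672 in Ezh2 KO Th2 and 4316 in Ezh2 KO unpolarized cells, with Cst3 at 4037 and 2644, H2-Aa, a class II chain, at 2037 and 1135, and Lyz2 and Itgam under the limit on both arrays. The part of such cells in the differences was not tested.

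**Figure D4:**
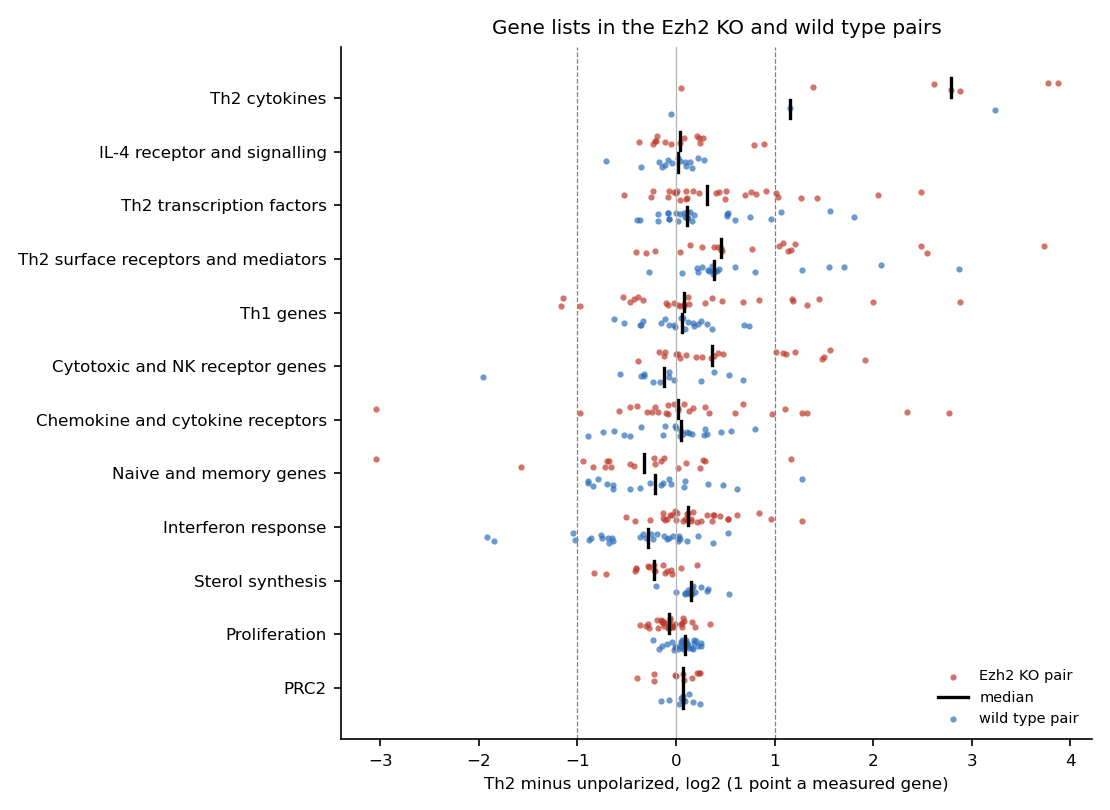
Points are the measured genes of 12 lists, placed by their log2 difference, Th2 minus unpolarized, in the Ezh2 KO pair (red, upper row of each list) and the wild type pair (blue, lower row); black bars are medians and dashed lines mark 2-fold. The Th2 cytokine medians lie at 2.79 over 7 measured genes in Ezh2 KO and at 1.16 over 3 in wild type. These medians cover different sets of genes and are not a like comparison. The IL-4 receptor and signalling medians lie at 0.04 and 0.02.

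Of 22 measured granule and killer receptor genes, 8 were 2-fold or more higher and 0 lower in Th2 cells without Ezh2, against 3.61% and 1.55% of all genes measured, with a median log2 difference of 0.37. In the wild type pair 0 of 14 measured were higher and 1 was lower, against 1.93% and 2.89% of all genes there. Gzma, a serine protease of cytotoxic granules, read 38608 in Ezh2 KO Th2 and 13065 in Ezh2 KO unpolarized cells, while the wild type arrays of the comparison read 51.0 in Th2 and 29.1 in unpolarized cells. Gzmc, Gzme, Gzmf and Gzmg, neighbouring granzymes of similar sequence whose probe sets may read more than 1 gene, were 2.02-fold to 2.84-fold higher, and Gzmc slipped to a log2 difference of 0.96 with median centring. Gzmb, another granule protease, was 54389 in Ezh2 KO Th2 and 52931 in Ezh2 KO unpolarized cells. Klrk1, which encodes the activating receptor NKG2D, read 347 in Ezh2 KO Th2, 91.8 in Ezh2 KO unpolarized and 294 in Ezh2 KO Th1 cells. Prf1, which encodes perforin, read 960 in Ezh2 KO Th2 and 453 in Ezh2 KO unpolarized cells, but the mean of its probe sets gave a log2 difference of 0.41. Of the 6 NK and NKT cell markers with a probe set, 2 were measured, Fcer1g at 110 in Ezh2 KO Th2 and 47.0 in Ezh2 KO unpolarized cells and Cd160 at 873 and 814 on the same arrays, while Ncr1 was under the limit on both. The list summed to 1080 in Ezh2 KO Th2 and 960 in Ezh2 KO unpolarized cells. Both CD8 T cell markers were measured, with log2 differences of 0.18 for Cd8a and 0.61 for Cd8b1, and summed to 539.8 in Ezh2 KO Th2 and 373.7 in Ezh2 KO unpolarized cells. The part of such cells in the granule gene differences was not tested.

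Among 28 measured Th1 genes, 6 were 2-fold or more higher and 2 lower, against 3.61% and 1.55% of all genes. With 17 above and 11 below 0 and a median log2 difference of 0.08, the Th1 list had members on both sides. Ifng, the signature cytokine of Th1 cells, read 608 in Ezh2 KO Th2 and 266 in Ezh2 KO unpolarized cells, and 767 in Ezh2 KO Th1 cells. Both wild type arrays of the comparison were at the floor for Ifng. Tbx21, which encodes the Th1 factor T-bet, ran the other way within Ezh2 KO, at 336 in Th2 and 488.5 in unpolarized cells, and 643 in Th1 cells. Cxcr3, a T-bet dependent chemokine receptor, read 1215 in Ezh2 KO Th2 and 2378 in Ezh2 KO unpolarized cells, a log2 difference of -0.97. The chemokines Ccl3 and Ccl4 read 407 and 438 in Ezh2 KO Th2 cells against 101 and 193.5 in Ezh2 KO unpolarized cells. Hlx, a homeobox factor that works with T-bet, was dim, at 83.8 in Ezh2 KO Th2 against the floor in Ezh2 KO unpolarized cells, at least 7.39-fold higher. Havcr2, which encodes the inhibitory receptor TIM-3, read 472 in Ezh2 KO Th2 and 172 in Ezh2 KO unpolarized cells.

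The cytokines Tnf and Lta, which lie side by side in the genome, were lower in Th2 cells without Ezh2. Tnf read 801 in Ezh2 KO Th2 and 1800 in Ezh2 KO unpolarized cells, and 1169 and 1041 in wild type Th2 and unpolarized cells. Lta, which encodes lymphotoxin alpha, read 4632 in Ezh2 KO Th2 and 10270 in Ezh2 KO unpolarized cells, and 9428 and 7298 in wild type Th2 and unpolarized cells. Within the Ezh2 KO pair, Tnf and Lta were thus 2.25-fold and 2.22-fold lower in Th2 than in unpolarized cells. Neither reached 2-fold in the wild type pair. Ltb, the membrane partner of lymphotoxin alpha, was within 2-fold at -0.29. Of 23 measured cytokines and chemokines outside the Th2 list, 4 were higher and 3 lower, against the same 3.61% and 1.55%.

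Among 28 measured receptors for chemokines and cytokines, 5 were 2-fold or more higher and 1 lower, against 3.61% and 1.55% of all genes, with a median of 0.02. Ccr1, a receptor for inflammatory chemokines, read 962 in Ezh2 KO Th2 and 141 in Ezh2 KO unpolarized cells, and between 27.1 and 32.0 on the 3 wild type arrays. Il1r2, the decoy receptor for IL-1, read 571.5 in Ezh2 KO Th2 and 113 in Ezh2 KO unpolarized cells. Cxcr6, a tissue homing receptor, read 7631 in Ezh2 KO Th2 and 3037 in Ezh2 KO unpolarized cells, against 117 and 112 in wild type Th2 and unpolarized cells. These 3 receptors had low wild type signal in both cultures. Ccr2 read 3889 in Ezh2 KO Th2 and 1806 in Ezh2 KO unpolarized cells, and of its 3 other probe sets 1 gave a negative difference, -0.48.

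Genes of naive and memory T cells leaned lower without reaching 2-fold in most cases. Of 20 measured, 14 were below 0, 2 were 2-fold or more lower and 1 higher, against 1.55% and 3.61% of all genes, with a median log2 difference of -0.32 in Ezh2 KO and -0.21 in wild type. Il6ra, the receptor chain for IL-6 that naive cells carry, read 19.9 in Ezh2 KO Th2 and 165 in Ezh2 KO unpolarized cells, and 306 and 567.5 in wild type Th2 and unpolarized cells. Its second probe set gave -2.24 beside -3.05 in Ezh2 KO. Klf2 and Klf3, factors of quiescent T cells, had differences of -0.84 and -0.95 in Ezh2 KO and -0.79 and -0.89 in wild type. Bach2, a repressor of effector genes, read 1282 in Ezh2 KO Th2 and 2108 in Ezh2 KO unpolarized cells. Btla, an inhibitory receptor, read 1219 in Ezh2 KO Th2 and 2410 in Ezh2 KO unpolarized cells, and 1969 and 3320 in wild type Th2 and unpolarized cells.

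Further bright genes were picked after their values were seen. Col18a1, which encodes collagen XVIII, the source of endostatin, had the widest difference of the genes measured, at 454 in Ezh2 KO Th2, 12.9 in Ezh2 KO unpolarized and 74.6 in Ezh2 KO Th1 cells. Its unpolarized value lay just above the floor and under the limit, and with the floor at the 40th percentile the log2 difference of Col18a1 was 3.60. A second probe set, at the floor in Ezh2 KO unpolarized cells, gave a log2 difference of 3.55 beside 5.13, and wild type cells read 82.5 in Th2 against the floor in unpolarized cells. Esm1, a secreted proteoglycan of endothelium, read 575 in Ezh2 KO Th2 and 101 in Ezh2 KO unpolarized cells, and the floor on both wild type arrays of the comparison. Rgs1, which dampens chemokine receptor signals, read 5765 in Ezh2 KO Th2 and 1599 in Ezh2 KO unpolarized cells, against 1530 and 1316 in wild type Th2 and unpolarized cells. Mmp9, a secreted gelatinase, read 500 in Ezh2 KO Th2 and 161 in Ezh2 KO unpolarized cells and the floor on all 3 wild type arrays. Dgat1, which completes triglyceride synthesis, read 2294 in Ezh2 KO Th2 and 818 in Ezh2 KO unpolarized cells. Plin2, a coat protein of lipid droplets, read 3477 in Ezh2 KO Th2 and 1622 in Ezh2 KO unpolarized cells, and 506 and 469 in wild type Th2 and unpolarized cells.

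For some genes the Ezh2 KO unpolarized array was the low one, and Ezh2 KO Th1 cells read close to Ezh2 KO Th2 cells. Clec2d, the ligand of an NK cell receptor, read 4176 in Ezh2 KO Th2, 1234 in Ezh2 KO unpolarized and 3759 in Ezh2 KO Th1 cells, and 2000 and 2015 in wild type Th2 and unpolarized cells. Cdkn2a, the senescence locus that PRC2 is known to silence, read 934 in Ezh2 KO Th2, 362 in Ezh2 KO unpolarized and 904 in Ezh2 KO Th1 cells. Gbp2, an interferon-induced GTPase, read 8055 in Ezh2 KO Th2, 3332 in Ezh2 KO unpolarized and 6152 in Ezh2 KO Th1 cells, and was the 1 gene at 2-fold among 33 measured interferon response genes. Both comparisons share the Ezh2 KO unpolarized array, so a low value there enters both.

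The 11 bright genes at 2-fold or more lower were Drc1, Upp1, Myl10, Prkar1b, Nsg2, Tnf, Lta, Hemgn, Elovl6, Aff3 and Stx17. Drc1, a component of motile cilia, had the lowest value, at 397 in Ezh2 KO Th2 and 1210 in Ezh2 KO unpolarized cells, and 2208 and 3518 in wild type Th2 and unpolarized cells. Upp1, which breaks down uridine, read 498 in Ezh2 KO Th2 and 1302 in Ezh2 KO unpolarized cells, and was under the limit on all 3 wild type arrays. Elovl6, a fatty acid elongase, read 2271 in Ezh2 KO Th2 and 4716 in Ezh2 KO unpolarized cells, with wild type at 4532 in Th2 and 4505 in unpolarized cells. Aff3 and Stx17 lay at the threshold, with log2 differences of -1.03 and -1.02, and both slipped to -0.97 with quantile normalization. The mean of the probe sets gave -0.75 for Prkar1b and -0.28 for Stx17.

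In the housekeeping lists no measured gene reached 2-fold, against 3.61% higher and 1.55% lower over all genes measured. At such shares lists of this size hold few calls, so a count of 0 does not set them apart. Of 30 measured proliferation genes 0 reached 2-fold, with a median of -0.07, and the same held for 15 glycolysis genes at -0.10, 20 apoptosis and p53 genes at 0.01 and 20 stress response genes at 0.19. Sterol synthesis genes were 0 of 17 at 2-fold, with a median of -0.22 in Ezh2 KO against 0.15 in wild type. Of the 17, 15 were below 0 in Ezh2 KO, as were 5626 of all 10749 genes measured. Among them Dhcr7, the last step of one branch of cholesterol synthesis, read 361 in Ezh2 KO Th2 and 643 in Ezh2 KO unpolarized cells. None of the 16 measured genes for PRC1 and H3K27 demethylases and none of the 10 for DNA methylation reached 2-fold, with medians of -0.15 and -0.13. None of the 11 PRC2 genes reached 2-fold, with a range of -0.40 for Phf19 to 0.24 for Aebp2, and Ezh1, the homologue of Ezh2, read 702 in Ezh2 KO Th2 and 819 in Ezh2 KO unpolarized cells.

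The remaining lists gave scattered genes at 2-fold, to be read against the 3.61% higher and 1.55% lower over all genes measured. Of 14 measured regulatory T cell genes 1 was higher, the integrin gene Itgae, at 85.5 in Ezh2 KO Th2 and 36.8 in Ezh2 KO unpolarized cells, and Foxp3, the defining factor, was under the limit on both arrays. Itgae was also the 1 gene of 17 integrins and adhesion receptors at 2-fold, and the mean of its probe sets gave a log2 difference of 0.72. Of 11 follicular helper genes 3 were higher, Tox2, Pou2af1 and Icos, but the mean of the Tox2 probe sets gave a log2 difference of 0.21. Of 5 Th17 genes and 6 MHC class II genes 0 reached 2-fold, with medians of 0.34 and 0.51. Of 10 inhibitory receptors 2 were higher, Havcr2 and Klrg1, of 22 activation genes 1, Irf4, and of 7 cell cycle inhibitors 1, Cdkn2a. Of 15 lipid handling genes 3 were higher, Pparg, Plin2 and the sterol exporter Abca1, and the mean of the Abca1 probe sets gave 0.13. Of 7 measured genes of a list of mast cell proteases and IL-4 induced myeloid genes, Cpa3, Arg1 and Fcer2a were higher and Ccl1 was lower. Arg1 and Ccl1 came to 0.81 and -0.95 with the floor at the 40th percentile, and Fcer2a to 0.68 with the mean of its probe sets. Arg1, an arginine-degrading enzyme, was dim, at 65.6 in Ezh2 KO Th2 and 21.2 in Ezh2 KO unpolarized cells.

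The genes with the widest differences of all were mostly dim. Besides Col18a1, Il5, Il10, Cyp11a1 and Cpa3, the 15 highest were Tmem89, Bahcc1, Rhbdd3, Spef2, Cd40, Mef2c, Slc7a8, Fer1l4, Mmp13 and Rab39b, with values of 92.4 to 248 in Ezh2 KO Th2 and 11.33 to 22.8 in Ezh2 KO unpolarized cells. The 15 lowest were Chst15, Krt88, Hkdc1, Palm, Il6ra, Ttbk1, Pcsk1n, Diras1, Spata7, Cysrt1, Per3, Aif1l, Odf3b, Numbl and Sp6. All but Il6ra and Cysrt1 were at the floor in Ezh2 KO Th2 cells, and their Ezh2 KO unpolarized values ran from 72.4 to 165. Rhbdd3 shows the limit of such values, since its second probe set gave a log2 difference of -3.33 beside 3.45. Of the 388 higher genes, 64 had another measured probe set, and it agreed in sign for 56 of them and reached 2-fold for 39. For the 77 bright genes the counts were 32, 30 and 20.

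The response was next set against that of wild type cells, which shares no array with it. Of the 388 genes higher in the Ezh2 KO pair, 207 (53.4%) were measured in the wild type pair and 32 were also called higher there. That is 8.25% of the Ezh2 KO list, beside 1.93% of all genes measured in wild type that were called higher. It is 15.5% of the wild type list, beside 3.61% of all genes measured in Ezh2 KO that were called higher. Of the 167 lower genes, 117 (70.1%) were measured in the wild type pair and 10 were also lower there. That is 5.99% of the Ezh2 KO list, beside 2.89% of all genes measured in wild type. It is 3.23% of the wild type list, beside 1.55% of all genes measured in Ezh2 KO. These list shares include genes not measured in the other pair, which could not be called there. They therefore run low beside the shares over all genes measured. Counting measured genes only, the shared calls were 32 of 207 and 10 of 117 for the higher and lower Ezh2 KO lists. For the wild type lists they were 32 of 132 and 10 of 163. Of the 77 bright higher genes, 60 were measured in the wild type pair, and 46 of the 60 were above 0 there, with medians of 1.35 over the 77 in Ezh2 KO and 0.41 over the 60 in wild type. The choice of the 77 fixes the first median above 1. Chosen the other way, the 21 bright genes higher in wild type had medians of 0.63 in Ezh2 KO and 1.34 in wild type, and 16 of the 21 were above 0 in Ezh2 KO. Over the 6372 genes bright in both pairs, signs matched for 51.8% and Pearson's r of the differences across genes was 0.21. That r is a description across genes measured with the same probes, and genes are not independent replicates.

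**Figure D5:**
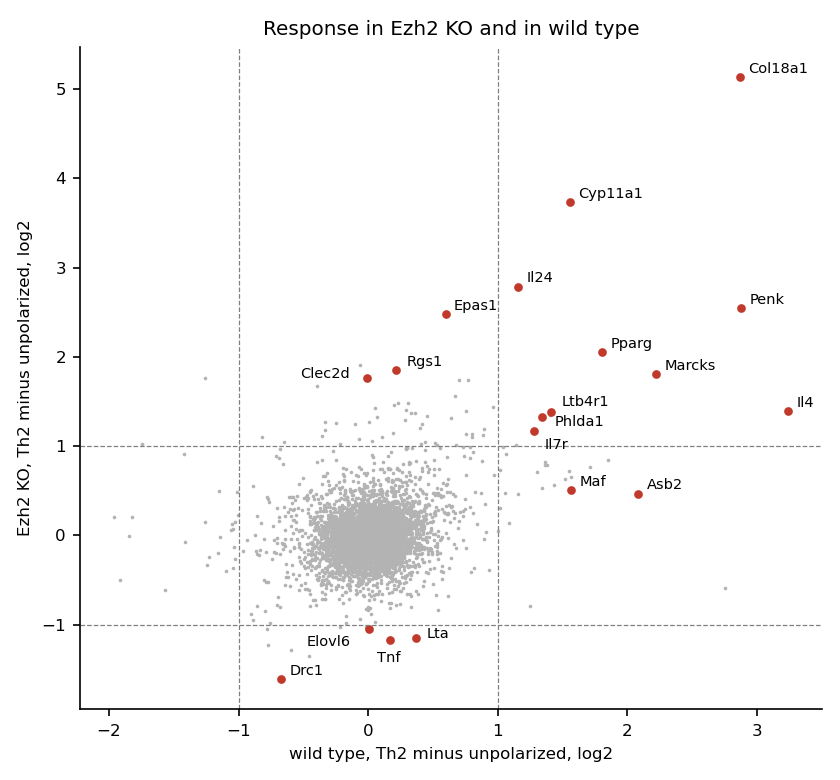
Each point is 1 of 6740 genes that were bright in the Ezh2 KO pair and measured in the wild type pair; the axes are the log2 differences, Th2 minus unpolarized, in wild type (horizontal) and Ezh2 KO (vertical), and dashed lines mark 2-fold. Genes such as Penk, Pparg, Marcks and Il4 stand beyond both lines, Rgs1 and Clec2d lie beyond the Ezh2 KO line with wild type near 0, and Maf and Asb2 lie beyond the wild type line alone.

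Genes higher in both genotypes included Penk, Pparg, Col18a1, Cyp11a1, Il24, Il4 and Il7r, whose values are given with their lists. Cd24a, a surface glycoprotein, read 364 in Ezh2 KO Th2 and 79.1 in Ezh2 KO unpolarized cells, and 1976 and 232 in wild type Th2 and unpolarized cells. Marcks, a substrate of protein kinase C, read 1153 in Ezh2 KO Th2 and 330 in Ezh2 KO unpolarized cells, and 549 and 118 in wild type Th2 and unpolarized cells. Phlda1, which is induced on T cell activation, read 1250 in Ezh2 KO Th2 and 500 in Ezh2 KO unpolarized cells, and 500 and 197 in wild type Th2 and unpolarized cells. Marcks, Phlda1 and Il7r were the 3 genes bright and 2-fold higher in both pairs. Spef2, Drd4 and Arhgef40 also ranked among the highest in both, at 85.9 to 110.3 in Ezh2 KO Th2 cells. With the probe set of highest median instead, the Ezh2 KO log2 difference of Spef2 was 0.51. The lowest in both were Cysrt1, Numbl, Glb1l, Hyal2, Zfr2, Cplane2, Gsap and Dusp13, at 74.5 to 210.2 in Ezh2 KO unpolarized cells. With the mean of probe sets, the Ezh2 KO log2 differences of Cysrt1, Glb1l, Zfr2 and Gsap came to -0.57, -0.71, -0.23 and -0.36.

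A test was possible only for the mean Th2 effect over both genotypes. It used limma on all 6 arrays with culture and genotype as terms, which leaves 2 residual degrees of freedom. With 1 array a group, this error is how far the culture differences of the 2 genotypes disagree, Th1 included, mixed with array noise. A response that differs between the genotypes thus widens its own error. Of 11589 genes tested, 0 (0%) passed a Benjamini-Hochberg adjusted p of 0.05, with a lowest adjusted p of 0.464, and 772 (6.66%) had an unadjusted p under 0.05. When the prior variance was allowed to follow signal, 5 genes passed in limma, all higher: Il7r, with a mean log2 difference of 1.23 and an SE of 0.11 (adjusted p = 0.0173), Penk, Cd24a, Tent5a and Phlda1, the last at an adjusted p of 0.0351. Each of these 5 was higher in both genotypes, but passing this test largely requires like differences in both, so the shared sign adds no support. With 2 residual degrees of freedom, a gene that misses the threshold is not shown to be level, and changes of the size of 2-fold may be missed. Il5, Il10 and Gata3 did not pass in either limma fit. The Ezh2 KO and wild type log2 differences were 3.88 and 1.46 for Il5 and 3.78 and 0.85 for Il10. Such unlike values enter the error, and both genes were under the limit in wild type, so the miss says little about the Ezh2 KO pair. The difference between the genotypes in any response was not tested.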

How the data were processed

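RNA of 6 CD4 T cell cultures (2 genotypes, 3 culture conditions) was hybridized to Affymetrix 3' arrays, 1 array a sample, per the labels' protocols. The authors deposited linear intensities, 1 for each probe set on each array. The submitters' processing notes name Affymetrix Expression Console, with no version; how probes were summarized is not stated in the labels. A 2% trimmed mean of the deposited intensities came to 500.003 for all 6 arrays, which shows scaling to a common target. The array medians differed, so no quantile normalization had been applied. Such scaling sets differences relative to the bulk of the array.

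Of 45101 probe sets, 64 were controls, 34945 had 1 gene symbol in the platform annotation, 932 several and 9160 none; the last 2 kinds were not used. Entrez identifiers matched the RefSeq table of GRCm38.p6 for 34741, with 0 symbols updated. Values were raised to the 20th percentile of all values (11.33) and taken to log2, and the probe set with the highest mean over the 6 arrays stood for each of 18193 genes. A gene was measured in a pair where its higher value reached the median of all values (64.43), and 2-fold was the size called. The number of arrays limits the precision, and the file holds no measure of background.

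Python 3.11.15 with pandas 2.3.3 made the comparisons. limma 3.58.1 in R 4.3.3 fitted culture and genotype on all 6 arrays (11589 genes whose highest value reached the limit, prior degrees of freedom 1.65, eBayes, Benjamini-Hochberg adjustment), and was tested on simulated data. The error of this fit is the disagreement of culture differences between the genotypes, mixed with array noise, and not a spread among replicates. Separate mice are not stated, so its p-values cover these arrays alone. The alternatives were scaling, floor, filter, choice of probe set, fold, arrays fitted and prior variance. The genes named by rule were 11 core genes, the 15 highest and 15 lowest measured differences in Ezh2 KO, up to 4 members of each list at 2-fold or more, the 8 highest and 8 lowest shared by both genotypes, the 8 highest and 8 lowest differences between genotypes, up to 8 genes at 2-fold in opposite directions, and any gene past the limma threshold, leaving out predicted genes, clone names and antigen receptor segments. Further members of lists, and bright genes, were added after their values were seen. The members and the 38 gene lists were chosen with earlier results of these data known.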

Additional observations from a re-analysis of the deposited data

Results flagged for a closer look

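Of the 388 genes 2-fold or more higher in the Ezh2 KO pair, 207 were measured in the wild type pair. Of these 207, 20 were 2-fold or more lower there, which is 5.15% of the 388. Over all genes measured in wild type, 2.89% were lower. Of the 167 lower genes of the Ezh2 KO pair, 117 were measured in wild type. Of these 117, 3 were higher there, which is 1.8% of the 167, beside 1.93% of all genes measured there. The shares of 5.15% and 1.8% include genes that could not be called in wild type. None of these genes was bright in both pairs. The 8 named genes whose smaller difference of the 2 pairs was widest are given here. The difference between the pairs was not tested, since each pair is 1 array against 1 array.

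Sct, which encodes the hormone secretin, gave the widest gap, with a log2 difference of 2.63 in Ezh2 KO and -3.15 in wild type, a gap of 5.78. The gap was 5.35 for Casp14, a caspase of skin, 5.31 for Wfdc1, 5.21 for Lca5l, 4.06 for Epb41l4a and 3.55 for Slc39a13, a zinc transporter gene. For Aif1l and Spata7 the Ezh2 KO difference was the negative one, with gaps of -5.42 and -4.47. Of the 8 genes, 5 had a value at the floor of 11.33 in the Ezh2 KO pair. With the floor at the 40th percentile, the Ezh2 KO differences of Sct, Lca5l and Wfdc1 came to 0.90, 0.85 and 0.98, and with the mean of its probe sets that of Aif1l came to -0.52. Dusp14, a phosphatase gene, was bright in the Ezh2 KO pair, at 606 in Th2 and 298 in unpolarized cells, and dim in wild type, at 29.2 in Th2 and 98.1 in unpolarized cells. Its Ezh2 KO difference was 0.97 with median centring.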

How the results depend on the processing

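The 388 higher and 167 lower genes of the Ezh2 KO pair, and the 7.57% of them called the same way in wild type, moved most with the limit on dim genes and the fold. With no filter there were 1402 higher and 1021 lower genes, of which 15.5% were called the same way in wild type, and with the limit at the 60th percentile 168 and 50. With the limit at the 75th percentile, which was chosen after seeing the data, there were 77 and 11, and 3.41%. At 1.5-fold there were 840 and 514, and 15.7%, and at 4-fold 110 and 41, and 3.97%. Under median centring, quantile normalization, no floor, a floor at the 40th percentile and both other choices of probe set, the counts ran from 306 to 390 higher and from 129 to 223 lower. Of calls, 69.9% were higher as reported, 62.3% with median centring and 65.7% with quantile normalization.

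The 0 genes of the limma test became 5 higher with a trend in the prior variance, and 3 higher with the limit at the 75th percentile, where 7237 genes were tested: Pparg, Penk and Mgll. They stayed at 0 in the other 9 alternatives run, with 644 to 1234 genes at an unadjusted p under 0.05, and without the Th1 arrays there were 725. Of 110 named genes called at 2-fold, 31 came under 2-fold or turned in some alternative, 18 of them with the mean of all probe sets and 6 with the higher floor. Rhbdd3 turned to -0.42 with the mean of its probe sets, which were at 3.45 and -3.33. No paired analysis was possible because each group has 1 array. Signal over background limits all genes near the limit of 64.43, and 1 array a group limits the rest.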
